A study of Mus musculus with 42 samples.

Results

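Rorb, the gene of the nuclear receptor ROR beta, lay in a lamina-associated domain (LAD) in 12 of 14 mouse liver libraries. It was chosen by its position, chr19:18930605-19111196 on mm10, because most but not all libraries placed a LAD over it, and it is 1 of 21938 protein-coding genes of the annotation. LADs had been mapped by chromatin immunoprecipitation and sequencing (ChIP-seq) of LMNB1, lamin B1, in liver of wild-type C57Bl/6 mice, 2 mice per time point. One group, non-synchronized (NS), supplied liver before any fasting, at midday. All other mice went without chow for 24 h, regained free access to it when the lights came on, which defines circadian time (CT) 0, and were taken then or 6, 12, 18, 24 or 30 h later (CT0 to CT30), so that feeding and clock phase cannot be told apart. The labels give both female and male for these mice, and give no age. LAD coordinates hold no expression level, so the identity of the tissue was not checked against marker genes, and read depth is unknown.

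LADs are stretches of chromatin that contact the nuclear lamina, the protein meshwork beneath the inner nuclear membrane. They are typically long, poor in genes and rich in heterochromatin, and most genes in them have low transcript levels. Retinoic acid receptor-related orphan receptors (RORs) bind response elements in DNA and activate transcription, whereas the REV-ERB receptors, from Nr1d1 and Nr1d2, bind the same elements and repress it. Arntl (Bmal1), a core activator of the circadian clock, is the classical target of both. Rora is expressed in liver, whereas Rorb is known mainly from brain, retina and pineal gland.

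Rorb (ENSMUSG00000036192.15) is on the minus strand, so its transcripts run toward lower coordinates. Its body measures 180.592 kb, longer than 94.8% of protein-coding genes. Rorb-203 begins at the upstream start site, position 19111196, and has 10 exons, of which exon 1 lies at 19110552-19111196. Rorb-201 and Rorb-202 begin at an internal start site, position 19001117, and have 10 and 11 exons. The start sites lie 110.079 kb apart, so a LAD border can fall between them. The 250 bases before each start site are given because LADs held one of them more often than the other. They were read from RefSeq sequence of GRCm38.p6 on the minus strand, the upstream one at chr19:19111197-19111446 and the internal one at chr19:19001118-19001367, and capitals mark matches to the motifs searched.
upstream promoter of Rorb: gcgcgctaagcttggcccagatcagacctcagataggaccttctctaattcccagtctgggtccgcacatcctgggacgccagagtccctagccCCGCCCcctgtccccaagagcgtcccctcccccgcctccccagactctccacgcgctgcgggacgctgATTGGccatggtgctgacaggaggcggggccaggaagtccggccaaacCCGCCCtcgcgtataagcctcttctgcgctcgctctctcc
internal promoter of Rorb: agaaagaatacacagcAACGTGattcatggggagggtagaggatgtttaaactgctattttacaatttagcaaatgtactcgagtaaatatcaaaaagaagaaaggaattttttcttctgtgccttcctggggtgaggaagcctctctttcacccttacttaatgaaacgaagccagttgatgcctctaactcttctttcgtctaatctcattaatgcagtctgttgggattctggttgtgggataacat

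The promoters differed in base composition. The upstream one had a GC content of 66% and 18 CpG dinucleotides, more CpG than 78.3% of 32851 promoter windows of this length. The internal one had a GC content of 39.2% and 4 CpG, more CpG than 37.8% of the windows. The median window had 52.4% GC and 6 CpG. Words bound by clock factors were sought on both strands. CACGTG, the E-box of CLOCK and ARNTL, AGGTCA, the core of the element bound by RORs and REV-ERBs, and the D-boxes TTATGTAA and TTATGCAA of the DBP family had no match in either promoter. They occurred in 6.02%, 14.02%, 0.819% and 0.694% of all windows. CACGTT, a variant E-box that shares its first 5 letters with CACGTG, matched once in the internal promoter, on the other strand and 234 bases before the start site, and occurred in 3.85% of windows. Of general promoter words, GGGCGG (the GC box, in 32.7% of windows) matched 2 times in the upstream promoter, 156 and 40 bases before the start site, and CCAAT (in 33.8%) matched once, 88 bases before it. All 3 matches were on the other strand, and no 2 marked matches overlapped. TATAAA, in 12.4% of windows, had no match in either. These are matches of letters and not measured binding.

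A single LAD overlapped Rorb in each of the 12 libraries. It held the whole gene in 9 libraries and part of it in 3, and Rorb overlapped no LAD in CT18 replicate 1 and CT30 replicate 1. The share of all protein-coding genes that overlapped a LAD by at least 1 bp was, for replicates 1 and 2, 9.5% and 10.7% at CT18 and 6.32% and 5.73% at CT30, the time points with a library that lacked it. It was 4.13% and 8.29% in NS, 5.41% and 8.55% at CT0, 7.1% and 10.2% at CT6, 8.41% and 9.68% at CT12, and 9.24% and 8.1% at CT24. This share was thus below 11% in every library, and the libraries without a LAD over Rorb were within its range. Over all libraries, 17.1% of protein-coding genes (3760) overlapped a LAD in at least 1, 1.1% (241 genes) in exactly 12, and 3.88% (852 genes) in 12 or more. Rorb was picked for this pattern, so these shares are its background and not a test. On either side of its count, 142 genes had a LAD in 11 libraries, 417 in 13 and 194 (0.884%) in all 14. Genes covered in 8 to 13 libraries, most but not all, made up 6.45%. No other protein-coding gene had the same pattern of presence and absence over the 14 libraries. How many genes have a pattern of their own is not given here, so this does not set Rorb apart.

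**Figure D1:**
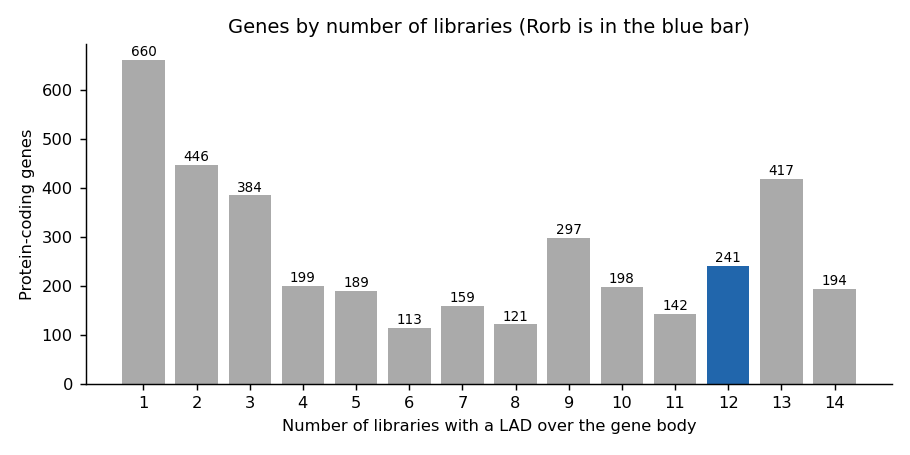
Number of protein-coding genes (vertical axis) by the number of libraries in which a LAD overlapped the gene body (horizontal axis, 1 to 14). The blue bar, 241 genes covered in 12 libraries, holds Rorb, and genes covered in no library are not drawn.

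In NS mice, the LAD reached from 18666001 to 20313000 in replicate 1 (1.647 Mb, 100% of the gene body) and from 18992001 to 20252000 in replicate 2 (1.26 Mb, 66.0% of the body). In replicate 2 the border crossed the gene. It left both start sites inside the LAD, the internal one by 9.116 kb, and only 1 of the 10 exons of Rorb-203, the first.

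At CT0 the LAD extended from 18894001 to 20445000 in replicate 1 (1.551 Mb, 100% of the body). In replicate 2 it extended from 18944001 to 20400000 (1.456 Mb, 92.6%). There, 9 of the 10 exons of Rorb-203 were inside, and only the last exon, at 18930605-18938035, was outside. At CT6 it held the whole gene in both mice, from 18690001 to 20370000 (1.68 Mb) and from 18909001 to 20339000 (1.43 Mb).

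At CT12 the mice differed. Replicate 1 had a LAD from 18900001 to 20345000 (1.445 Mb, 100% of the body), and replicate 2 one from 19040001 to 20170000 (1.13 Mb, 39.4%). The latter was the shortest of the 12 and lay inside the other 11. Its border fell between the start sites, 38.884 kb from the internal one, so that only the upstream start site and exon 1 of Rorb-203 were covered. The upstream start site was thus in a LAD in 12 libraries and the internal one in 11. Of all protein-coding genes, 3.77% had their start site in a LAD in at least 12 libraries.

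At CT18 replicate 1 had no LAD over Rorb, and replicate 2 had one from 18888001 to 20448000 (1.56 Mb, 100% of the body). At CT24 both mice had the whole gene in a LAD, from 18928001 to 20426000 (1.498 Mb) and from 18918001 to 20484000 (1.566 Mb). At CT30, as at CT18, the mice differed in presence itself: replicate 1 had none and replicate 2 had a LAD from 18768001 to 20286000 (1.518 Mb, 100% of the body).

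**Figure D2:**
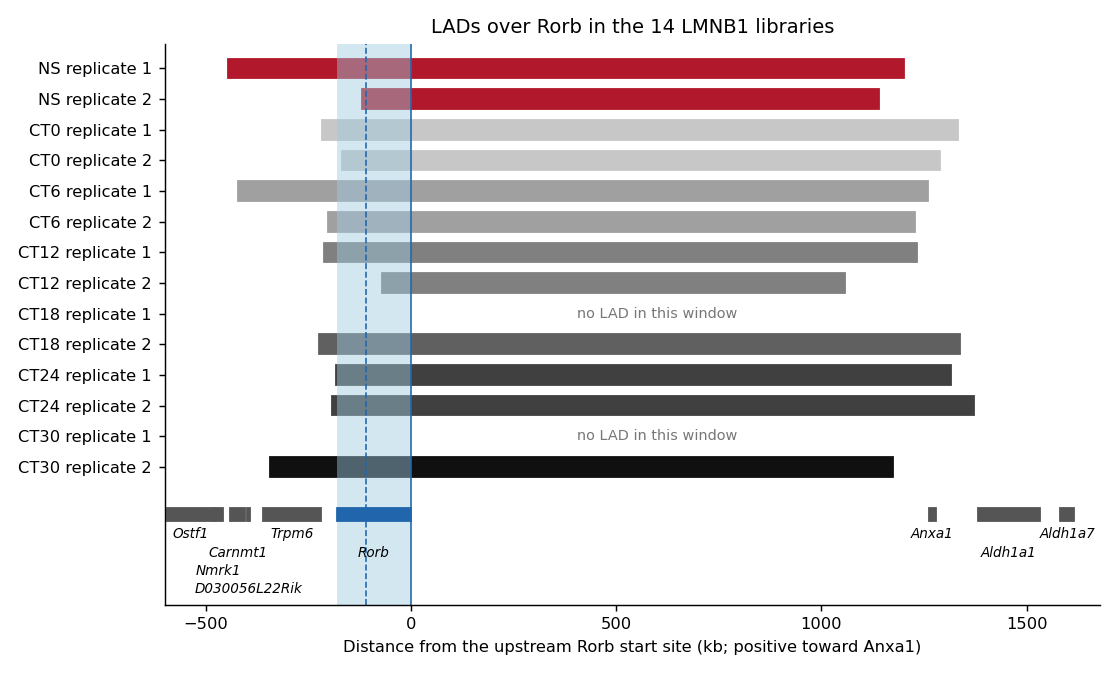
LADs over Rorb in the 14 libraries, drawn to scale as bars along the distance in kb from the upstream start site of Rorb, positive toward Anxa1. The blue band is the Rorb body, its right edge the upstream start site and the dashed line the internal one, and protein-coding genes are boxes at the bottom. The high-coordinate ends lie between 1058.8 and 1372.8 kb, and CT18 replicate 1 and CT30 replicate 1 have no bar.

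The mean share of the body in a LAD was, from high to low, 100% ± 0 (SD, n = 2) at CT6 and CT24, 96.3% ± 5.25 at CT0, 83.0% ± 24.0 in NS mice, 69.7% ± 42.8 at CT12 and 50.0% ± 70.7 at CT18 and CT30. Over all 14 libraries it was 78.4% ± 37.6, with a median of 100%. No neighbours in this order differed by more than the gap between the mice of one of them. Base pairs covered in both mice of a time point made up 100% of the body at CT6 and CT24, 92.6% at CT0, 66.0% in NS, 39.4% at CT12 and 0% at CT18 and CT30. By this intersect Rorb was in a LAD at 5 of 7 time points, whereas the union of the mice covered 100% of it at all 7.

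**Figure D3:**
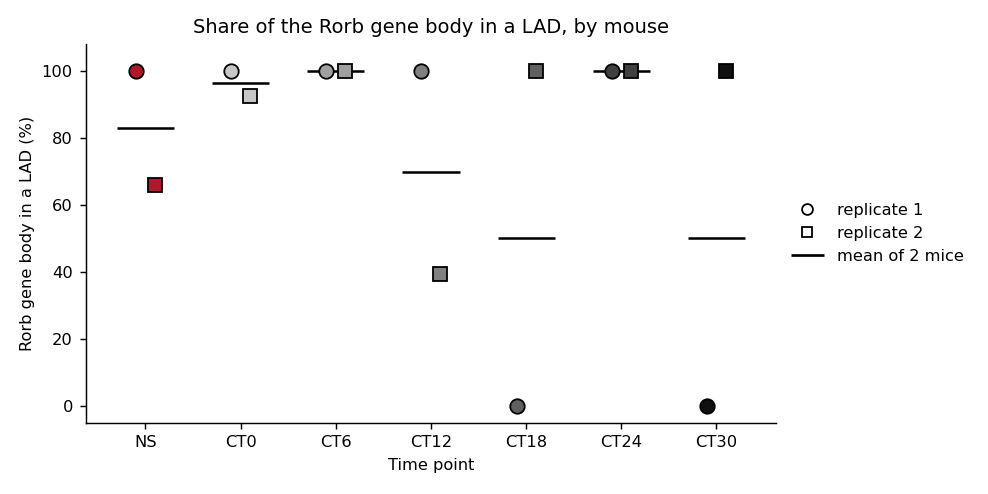
Share of the Rorb gene body in a LAD (vertical axis, %) at each time point, with circles for replicate 1, squares for replicate 2 and lines for the mean of the 2 mice. Both mice are at 100% at CT6 and CT24, and they lie at 0% and 100% at CT18 and CT30.

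The libraries without a LAD over Rorb also had the lowest LAD coverage on the rest of chromosome 19. Outside the region around Rorb, LADs took up 5.035 Mb of chromosome 19 in CT18 replicate 1 and 3.286 Mb in CT30 replicate 1, and 5.49 to 13.1 Mb in the other 12 libraries. No chromosome 19 LAD lay below Rorb in either of them, nor in NS replicate 1, which had the LAD over Rorb, whereas 11 libraries had one there. The nearest LAD was 14005.8 kb above the upstream start site in CT18 replicate 1, at 33117001 to 34390000. In CT30 replicate 1 the only chromosome 19 LAD, at 49786001 to 53072000, was 30674.8 kb above it. Across the genome, CT18 replicate 1 had 617.9 Mb and CT30 replicate 1 had 405.4 Mb in LADs, within the range of 335.3 to 663.0 Mb of the 14 libraries. The bin in which LADs had been called, read from the spacing of their starts, ranged from 4 kb (NS replicate 2 and CT0 replicate 2) to 61 kb (NS replicate 1), and was 19 and 31 kb in these libraries. Deposited names carry the numbers 1, 2 or 3, and the LAD was present in 4 of 6 libraries numbered 1, 5 of 5 numbered 2 and 3 of 3 numbered 3. The part of chromosome-wide calling, bin and number in the absence of the LAD was not tested.

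The stretch common to the 12 LADs ran from 19040001 to 20170000 (1.13 Mb), and their union from 18666001 to 20484000 (1.818 Mb). The common stretch held 71.196 kb of Rorb, 39.4% of its body, and no other protein-coding gene. It further held 7 noncoding genes, 5 lincRNAs and 2 snoRNAs. The common stretch equals the LAD of CT12 replicate 2, the shortest of the 12. In 7 of 12 libraries the LAD border fell within 50 kb of the 3′ end of Rorb. In NS replicate 1, CT6 replicate 1 and CT30 replicate 2 it lay 264.6, 240.6 and 162.6 kb beyond that end. Rorb thus sat at one edge of the common stretch, with its upstream start facing inward. Beyond that start lay 1.26 Mb without a protein-coding gene, up to Anxa1, and the LADs covered 83.9% to 100% of this gene desert, over 90% of it in 11 libraries. The LADs had a median length of 1.508 Mb. On chromosome 19, the next LAD began 2740.8 to 30448.8 kb above the upstream start site. Where there was one on the other side, it ended 2809.6 to 5268.6 kb below the 3′ end. These distances run from the gene and include the part of the LAD beyond it. In CT18 replicate 2, the LAD over Rorb ended at 20448000 and the next began at 21852001. Against the other LADs of its library, the LAD over Rorb was longer than 11.01% (CT0 replicate 1) to 58.9% (CT18 replicate 2).

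Base composition separated the gene desert from the gene. From Rorb to Anxa1 the sequence had 37.5% GC and 4.81 CpG per kb, and the Rorb body had 39.3% GC and 7.71 CpG per kb. The part of the body in the common stretch had 38.6% GC and 8.06 CpG per kb, and the part outside it 39.8% and 7.48. All were below chromosome 19 as a whole, with 42.7% GC and 9.59 CpG per kb. The 500 kb below Rorb had 41.5% GC and 9.02 CpG per kb.

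The LAD border on the 3′ side of Rorb fell within 50 kb of the 3′ end of the gene, on either side, in 7 of 12 libraries. It lay inside Rorb in 3 libraries, NS replicate 2 (61.4 kb), CT0 replicate 2 (13.4 kb) and CT12 replicate 2 (109.4 kb). In 5 it fell in the 38.093 kb between Rorb and Trpm6, 2.60 to 36.6 kb beyond the 3′ end, in both mice of CT24 and in 1 mouse each of CT0, CT6 and CT12. In 2 it fell inside Trpm6 and in 2 beyond it. The median was 26.1 kb beyond the 3′ end, over a range of 374 kb. Replicates lay 326 kb apart in NS, 50 kb at CT0, 219 kb at CT6, 140 kb at CT12 and 10 kb at CT24. Since this border set how much of the gene was covered, it was not tested.

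Rorb was chosen for how many libraries had a LAD over it, and the test below was chosen with earlier results of these data known. The CTs tested were selected by presence of the LAD, so the test is not independent of that choice. The border beyond the upstream start belongs to that LAD, but its position was not the ground for the choice. This border was outside Rorb in all 12 libraries. It lay 1201.8 and 1140.8 kb beyond the upstream start in NS mice, 1333.8 and 1288.8 kb at CT0, 1258.8 and 1227.8 kb at CT6, 1233.8 and 1058.8 kb at CT12, and 1314.8 and 1372.8 kb at CT24. The lone LADs of CT18 and CT30 ended 1336.8 and 1174.8 kb beyond it. All CT0 and CT24 values lay above all CT6, CT12 and NS values. The nearest of them, 1288.8 kb at CT0 and 1258.8 kb at CT6, were closer than the 35 kb bin of CT6 replicate 1. The lone CT18 value lay among those of CT0 and CT24, and the lone CT30 value among the others. The means were 1171.3 ± 43.1 kb (SD, n = 2) in NS, 1311.3 ± 31.8 kb at CT0, 1243.3 ± 21.9 kb at CT6, 1146.3 ± 124 kb at CT12 and 1343.8 ± 41.0 kb at CT24.

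Whether this border moved between CTs more than between mice was tested over the 8 libraries of CT0, CT6, CT12 and CT24, the CTs with the LAD in both mice. The F ratio of time points to replicates was 3.30, with p = 0.0571 in an exact permutation test over all 105 divisions into pairs, whose smallest p is 0.00952. The test thus did not pass the threshold of 0.05. The labels list an input control per time point and not per mouse. Both mice of a time point may thus share a control, which the test does not take into account. Without CT12 replicate 1, the F ratio was 18.95, whereas without any other single library it was 1.97 to 4.48. Each of these fits leaves a CT with 1 library, which adds nothing to the spread between mice. Between CT0 and NS the means differed by 140 kb, with p = 0.333 in an exact two-sided permutation test, the smallest p that 2 mice against 2 allow. Replicates lay 61 kb apart in NS, 45 kb at CT0, 31 kb at CT6, 175 kb at CT12 and 58 kb at CT24. In NS, at CT0 and at CT6 that gap was no larger than the bin of replicate 1 (61, 47 and 35 kb).

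**Figure D4:**
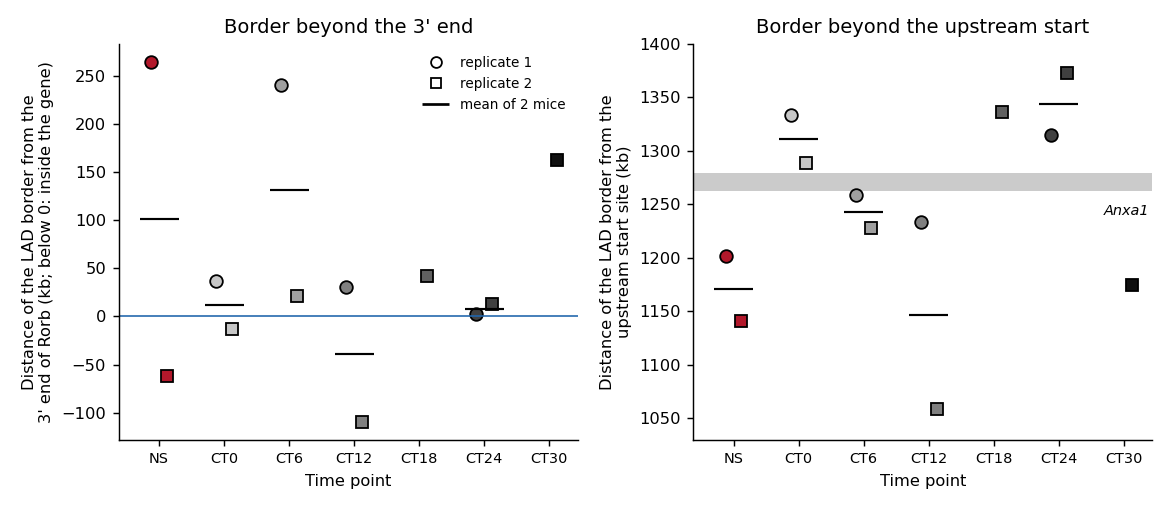
Position of both borders of the LAD over Rorb at each time point (circles replicate 1, squares replicate 2, lines the mean where both mice have the LAD), in kb beyond the 3′ end (left, negative inside the gene) and in kb beyond the upstream start site (right, grey band for Anxa1). The CT0 and CT24 points on the right lie at 1288.8 to 1372.8 kb, beyond Anxa1, and the widest gap between mice there is 175 kb, at CT12.

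Of the 13 protein-coding genes within 2 Mb of Rorb, 4 overlapped a LAD in at least 1 library and 9 in none. On the 3′ side, Trpm6, which encodes a magnesium-permeable channel, overlapped it in 4 libraries, with 100% of its body in NS replicate 1 and CT6 replicate 1, 87.4% in CT30 replicate 2 and 3.16% in CT18 replicate 2. D030056L22Rik was covered whole in NS replicate 1 and CT6 replicate 1. Carnmt1, a carnosine methyltransferase gene, was covered by 100% and 47.2% in these libraries. The bins of NS replicate 1, CT6 replicate 1 and CT30 replicate 2 were wide, at 61, 35 and 46 kb. CT0 replicate 1, with a bin of 47 kb, left Trpm6 uncovered, and the part of the bin was not tested. On the other side, Anxa1, which encodes the phospholipid-binding annexin A1, was covered whole in 5 libraries, both of CT0, both of CT24 and CT18 replicate 2. Anxa1 is 17.517 kb long, shorter than the bin of several libraries. In CT6 replicate 1, with a bin of 35 kb, the LAD ended at 20370000, just short of Anxa1 at 20373428. Covered and uncovered can thus differ by less than a bin. The border beyond the upstream start fell before Anxa1 in 7 libraries, past it in 5 and inside it in none, and in 10 of 12 it was within 100 kb of it.

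Trpm6 was wholly covered in only 2 of 14 libraries and Anxa1 in 5, and no library had both. With counts this small, the lack of overlap is a description, and it was not tested. CT18 replicate 2 was the only one in which both overlapped the LAD, with 3.16% of Trpm6. The LAD stopped short of Aldh1a1, a retinaldehyde dehydrogenase gene, by at least 8.714 kb, and of Nmrk1, a nicotinamide riboside kinase gene, by at least 0.0136 Mb. Prune2, Gcnt1, Rfk, Pcsk5, Ostf1, Aldh1a7 and Tmc1 were also outside LADs in all 14 libraries. Among these 14 genes, Rorb was thus covered in 12 libraries and the next, Anxa1, in 5.

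**Figure D5:**
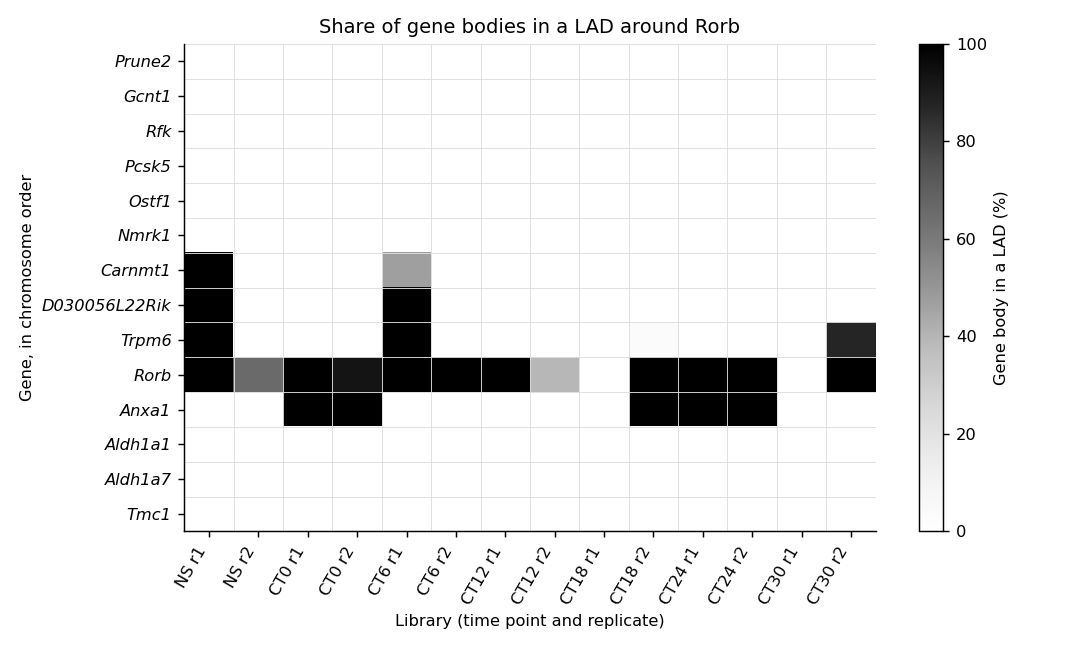
Share of each gene body in a LAD (grey scale, white 0% to black 100%) for Rorb and the 13 protein-coding genes within 2 Mb, in chromosome order from top to bottom, in the 14 libraries (r1 and r2 are the replicates). Rorb is covered in 12 columns, Anxa1 in 5, Trpm6 in 4 and 9 genes in none.

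The paralog Rora overlapped no LAD in any library and lay 6.66 to 37.8 Mb from the nearest one (median 7.37 Mb over the 14 libraries). Of 18 other clock genes, 0 overlapped a LAD in any library, beside 17.1% of all protein-coding genes. The 18 were Nr1d1 and Nr1d2, the activators Arntl, Arntl2, Clock and Npas2, the repressors Per1, Per2, Per3, Cry1, Cry2, Bhlhe40, Bhlhe41 and Ciart, and the D-box factors Dbp, Tef, Hlf and Nfil3. Hlf came nearest, 0.007105 to 0.905 Mb from a LAD (median 0.325 Mb), followed by Bhlhe40 at 0.288 to 0.953 Mb (median 0.414 Mb). The median distance was highest for Arntl2, at 12.9 Mb.

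Outside this region, the protein-coding gene whose share of body in a LAD was most like that of Rorb over the 14 libraries was Fut9, a fucosyltransferase gene on chromosome 4. It differed from Rorb by 12.98 percentage points per library on average. Fut9 was covered in 13 libraries, wholly in 12 and by 79.7% in NS replicate 2, and like Rorb had no LAD in CT30 replicate 1. Unlike Rorb, it was covered in CT18 replicate 1. Epha7, Fpr-rs3 and Manea, the first by symbol among genes tied at 14.4 points, were wholly covered in 13 libraries and not in CT30 replicate 1.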

How the data were processed

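LMNB1 ChIP-seq of 14 mouse livers was analysed. The authors mapped reads to mm10 with Bowtie (2.25.0 in the submitters' notes) after removing duplicates with Picard, equalised the depth of ChIP and input, and called LADs in each mouse with Enriched Domain Detector (EDD), averaging bin size and gap penalty over 10 runs. The deposited files give start and end of each LAD in base pairs, with no score or count, so depth and counting error are unknown. Inputs and RNA-seq were not analysed here.

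Positions are counted from 1. Genes were those of GENCODE vM21 on GRCm38.p6, the mitochondrial ones left out, and promoter sequence came from RefSeq. Groups and replicate numbers follow the titles. Rorb, the neighbours, the clock gene list and the tests were chosen with earlier results of these data known. Genes named were Rorb, protein-coding genes within 2 Mb or in the merged LAD region, the paralog Rora, clock genes nearest to a LAD (the whole list is also spelled out), and the 5 most alike by mean absolute difference of body share. Some genes that this rule names are not reported here. Presence and body share were described without a test. The outer border was compared by F ratio and exact permutation test, checked on simulated data. Python 3.11.15, NumPy 2.4.6, SciPy 1.17.1, pandas 2.3.3 and matplotlib 3.10.9 were used.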

Additional observations from a re-analysis of the deposited data

How the results depend on the processing

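The number of libraries with a LAD over Rorb stayed at 12 of 14 when LADs of at least 1 Mb were used, when LADs less than 0.1 Mb apart were joined, or when the upstream start site was required to be inside. It was 11 with at least 50% and 9 with the whole body inside. Without replicate 1 it was 7 of 7 and without replicate 2 it was 5 of 7. The mean share of the body was 71.4% to 85.4% when 1 replicate of each time point was left out, 56.9% in intersects and 100% in unions of replicates, and 78.4% with the RefSeq gene record. Chosen after seeing the data, the 12 CT libraries alone gave 10 of 12 libraries and 77.7%, and the body of the shorter transcript 71.0%.

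For the border beyond the upstream start, the F ratio was 3.03 on log2 distances, 3.60 with NS added (exact permutation p = 0.0931) and, chosen after seeing the data, 2.55 with the lone libraries of CT18 and CT30 (exact permutation p = 0.207). Leaving out 1 library at a time gave 1.97 to 18.95, the highest without CT12 replicate 1. Each of these fits leaves a CT with 1 library that adds nothing to the spread between mice. With the replicate number as a block the F ratio was 3.30 (exact permutation p = 0.0833). Deviations of same-numbered libraries over genes correlated at -0.111 to 0.465 for 21 pairs of time points (median 0.060), 7 of them above 0.1. Among the 6 pairs of tested CTs, 1 was above 0.1. Whether the replicate number marks a difference shared between time points was not tested. The block changed no call.

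With 2 mice per time point and no score per LAD, a LAD just under the calling threshold and a region without LMNB1 enrichment look alike, and border positions are no finer than the bin of 4 to 61 kb.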
